A study of Mus musculus with 4 samples.

Results

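Messenger RNA for complexes II to V of the mitochondrial respiratory chain was measured in sorted brain microglia of WT and AppSAA mice 1 day after an antibody dose. Members were taken by gene symbol: Sdha, Sdhb, Sdhc and Sdhd for complex II, Cyc1 and the genes starting with Uqcr or Uqcc for complex III, Cycs for cytochrome c, Cox4i1 and the genes of the Cox5, Cox6, Cox7 and Cox8 families for complex IV, those starting with Atp5 for complex V, and the mitochondrially encoded genes of these complexes. This gave 55 of the 19737 genes in the count matrix, of which 49 are encoded in the nucleus and 6 in mitochondrial DNA. Complex II had 4 members, complex III 13, complex IV 18 and complex V 19, and cytochrome c is encoded by 1 member. The Uqcc genes encode assembly factors and Cycs the carrier cytochrome c. The remaining members encode subunits or, for Cox7a2l, a protein described as joining complexes III and IV.

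All 20 mice were homozygous for the TfRmu/hu knock-in, which places the apical domain of human transferrin receptor in the mouse protein. There were 5 groups of 4 mice. WT mice received ATV:ISO or ATV:4D9. Mice also homozygous for AppSAA, a knock-in of mutant amyloid precursor protein, received ATV:ISO, 4D9 or ATV:4D9. 4D9 is an antibody to mouse TREM2, a receptor of microglia, and ATV is an antibody transport vehicle whose constant region binds human transferrin receptor. ATV:ISO is the isotype control in the same format, and cells deposited under the name ATV-DNP02 were taken to be this control. The paper's legend to the design gives a single intravenous dose of 10 mg kg−1 for ATV:ISO and ATV:4D9, and does not name 4D9 there. The reporting summary gives 8 months as the age of AppSAA mice and 2 to 8 months for WT mice, so age and genotype cannot be told apart here. The WT ATV:ISO mouse of pool 4 is recorded as female and the other mice as male. The sources disagree on whether cells were sorted for CD11b alone or for CD45 and CD11b, and on whether cortex or cortex with hippocampus was taken.

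As background, complex II (succinate dehydrogenase) oxidises succinate to fumarate and passes the electrons to ubiquinone. Complex III passes them on to cytochrome c and complex IV from cytochrome c to oxygen, and both complexes build the proton gradient. Complex V, the ATP synthase, makes ATP as protons return through its membrane rotor. Complex II is encoded wholly in the nucleus, whereas complexes III, IV and V mix nuclear subunits with mitochondrially encoded subunits. Microglia are the resident macrophages of the brain.

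The matrix holds unique molecular identifiers (UMIs), 1 per captured transcript, for 74758 cells. Each mouse contributed 2193 to 6126 cells and 17150296 to 102446549 UMIs. Median UMIs per cell were 6859 to 8173.5 in the WT ATV:ISO mice, 13479 to 17290 with ATV:4D9, 8444.5 to 9883.5 in AppSAA ATV:ISO, 8293 to 11552.5 in AppSAA 4D9 and 13560 to 16475 in AppSAA ATV:4D9 mice. Cells were processed in 4 pools that each held a mouse from every group, and 543 of 74212 barcode sequences occurred in more than 1 pool. All 8 microglial markers were detected in every group, at a summed 22570 to 34080 counts-per-million (CPM) of a mouse's UMIs. Summed markers of monocytes, neutrophils, T and NK cells, B cells, border macrophages and neurons each stayed at or below 30.8 CPM, those of endothelium at or below 53, of oligodendrocytes at or below 73.5 and of astrocytes at or below 166.6. Several marker sums differed between groups without overlap. From WT ATV:ISO to WT ATV:4D9 mice, lower sums were found for astrocytes (137.4 to 166.6 CPM against 62.2 to 77.0), oligodendrocytes (58.6 to 73.5 against 34.5 to 47.9), endothelium (18.4 to 24.65 against 9.57 to 13.2), microglia (31750 to 34080 against 23690 to 26290), B cells (26.9 to 30.5 against 16.6 to 25.8) and neurons (1.22 to 2.16 against 0.714 to 1.08). Monocyte markers were higher in AppSAA ATV:4D9 (9.85 to 13.6 CPM) than in AppSAA ATV:ISO (3.95 to 9.08), AppSAA 4D9 (5.51 to 8.68) and WT ATV:4D9 mice (6.08 to 7.11). Endothelial markers were at 37.8 to 53 CPM in AppSAA ATV:ISO, above WT ATV:ISO, and at 39.4 to 49.8 in AppSAA 4D9 mice. In AppSAA ATV:4D9 mice they were at 13.4 to 26.4 CPM, below both and above WT ATV:4D9. With ATV:ISO, markers of astrocytes (84.4 to 113.5 CPM), microglia (23740 to 27520), B cells (17.3 to 20.4) and neurons (0.464 to 0.912) were lower in AppSAA than in WT mice. Microglial markers were also lower in AppSAA ATV:4D9 (22570 to 24210 CPM) than in AppSAA 4D9 mice (24800 to 25690). Haemoglobin genes Hbb-bs and Hba-a1 reached 371 CPM in the AppSAA ATV:4D9 mouse of pool 3, so counts of members called that involve that group over all cells and in clusters 0 and 3 are also given without this mouse. The part of these values in the results below was not tested.

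Promoters of 39 of the 49 nuclear members were matched in RefSeq (GRCm38.p6), as windows from 250 bases before to 50 bases after the start of transcription. 4 of them are shown because they belong to members at the opposite ends of the response to ATV:4D9: Cycs and Atp5g1 were among the 3 members with the largest rises in WT mice, and Cox7a2l and Uqcc3 had the 2 largest falls. They lie at chr6:50566520-50566819 on the minus strand (Cycs), chr11:96075582-96075881 on the minus strand (Atp5g1), chr17:83514284-83514583 on the minus strand (Cox7a2l) and chr19:8880884-8881183 on the minus strand (Uqcc3). Capitals mark a match to the core of the NRF1 site (GCATGCGC) or to the E-box (CACGTG), searched on both strands.
Cycs: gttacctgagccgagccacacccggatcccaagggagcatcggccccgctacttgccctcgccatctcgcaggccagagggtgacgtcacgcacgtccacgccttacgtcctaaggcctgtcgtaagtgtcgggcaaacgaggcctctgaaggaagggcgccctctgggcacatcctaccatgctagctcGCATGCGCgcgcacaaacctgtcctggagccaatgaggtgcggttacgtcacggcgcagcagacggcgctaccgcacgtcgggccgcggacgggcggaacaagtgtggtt
Atp5g1: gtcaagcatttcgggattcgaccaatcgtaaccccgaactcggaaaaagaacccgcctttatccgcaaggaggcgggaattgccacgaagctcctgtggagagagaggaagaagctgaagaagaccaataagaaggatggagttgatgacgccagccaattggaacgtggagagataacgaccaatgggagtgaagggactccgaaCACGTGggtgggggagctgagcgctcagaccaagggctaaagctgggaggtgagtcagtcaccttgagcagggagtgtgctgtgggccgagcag
Cox7a2l: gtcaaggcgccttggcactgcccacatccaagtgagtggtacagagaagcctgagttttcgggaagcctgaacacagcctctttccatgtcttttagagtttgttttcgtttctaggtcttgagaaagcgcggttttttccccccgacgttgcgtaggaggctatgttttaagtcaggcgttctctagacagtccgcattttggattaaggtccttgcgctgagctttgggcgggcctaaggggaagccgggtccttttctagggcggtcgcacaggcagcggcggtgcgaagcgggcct
Uqcc3: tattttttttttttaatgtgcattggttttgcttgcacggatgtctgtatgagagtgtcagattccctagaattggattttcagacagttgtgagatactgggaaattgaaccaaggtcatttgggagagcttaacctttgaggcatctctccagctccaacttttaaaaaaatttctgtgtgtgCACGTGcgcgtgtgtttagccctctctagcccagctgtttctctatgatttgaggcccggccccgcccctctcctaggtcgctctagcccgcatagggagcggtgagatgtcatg

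NRF1 is a transcription factor known to bind promoters of respiratory genes, and its core was present in 8 of the 39 members (20.5%) against 3.05% of 27025 genes. These were Sdhb, Uqcrc1, Uqcr11, Cycs, Cox6a1, Atp5g2, Atp5k and Atp5l, and all 8 rose with ATV:4D9 in WT mice, as did 32 of the 39 in all. The ETS site bound by GABPA (CCGGAAGT) was in 4 members (10.3%) against 4.31% of all genes, the YY1 site (AANATGGC) in 6 (15.4%) against 6.96%, and the E-box in 5 (12.8%) against 8.09%. The Cox7a2l window held none of the 4 motifs, and Uqcc3, which fell, and Atp5g1, which rose, both held an E-box. A match of letters describes the window and does not show that a factor binds there.

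The 49 nuclear members together took a larger share of UMIs after ATV:4D9 than after ATV:ISO in both genotypes, and the 6 mitochondrially encoded members did not follow them to the same extent. In the following, values of single mice are in the order of pools 1 to 4. An error on a level or ratio is the SD over the 4 mice of a group or, for clusters, over the mice with enough cells there. An error on a log2 fold change is its standard error. The nuclear sum was 8478, 8529.9, 7734 and 7952 CPM in WT ATV:ISO mice and 13944, 12915, 12732 and 13181 in WT ATV:4D9 mice. It was 10598, 11503, 9970.3 and 10248 CPM in AppSAA ATV:ISO, 11211, 11277, 9938 and 10114 in AppSAA 4D9 and 14393, 13338, 12478 and 12651 in AppSAA ATV:4D9 mice. Every ATV:4D9 mouse lay above every mouse of the other 3 groups, and every AppSAA ATV:ISO mouse lay above every WT ATV:ISO mouse. The group means were 8173 ± 393, 13193 ± 534, 10579.9 ± 667, 10635 ± 707 and 13215 ± 869 CPM in that order. As the mean number of nuclear-member UMIs per cell, the same sums were 70.2 ± 3.89, 221 ± 22.4, 122 ± 8.496, 126 ± 12.1 and 226 ± 24.0. Among cells of 1000 to 25000 UMIs alone, the nuclear sum was 8101 CPM in WT ATV:ISO, 12878 in WT ATV:4D9, 10279.6 in AppSAA ATV:ISO and 12763 in AppSAA ATV:4D9 mice.

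The mitochondrially encoded sum was 8111 to 10847 CPM in mice of pools 1 and 2 and 11323 to 16539.8 in mice of pools 3 and 4, and in every group pools 3 and 4 lay above pools 1 and 2. By group it was 8535, 8111, 11323 and 11884 CPM in WT ATV:ISO mice, 9993, 9058, 12731 and 14711 in WT ATV:4D9, 10730.4, 10165, 14466 and 16086 in AppSAA ATV:ISO, 10847, 10239.6, 14152 and 16539.8 in AppSAA 4D9 and 9265, 9207, 14219 and 15779 in AppSAA ATV:4D9 mice. The ratio of mitochondrially encoded to nuclear member UMIs was 1.23 ± 0.290 in WT ATV:ISO, 1.23 ± 0.332 in AppSAA ATV:ISO and 1.23 ± 0.353 in AppSAA 4D9 mice. It was 0.884 ± 0.207 in WT ATV:4D9 and 0.930 ± 0.308 in AppSAA ATV:4D9 mice.

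**Figure D1:**
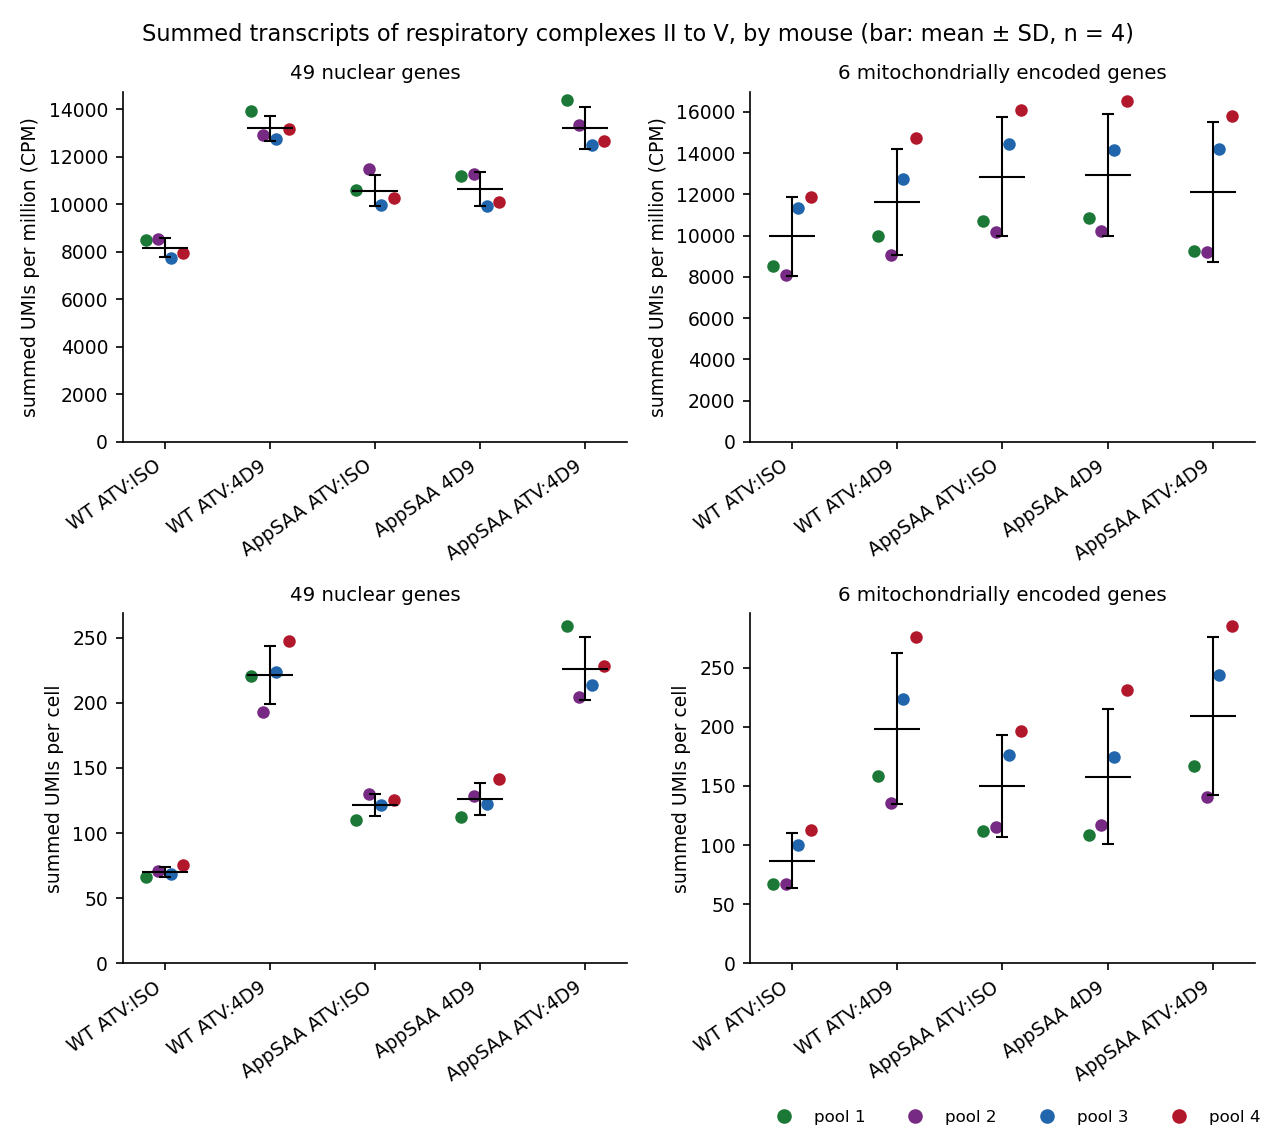
Summed level of the 49 nuclear and the 6 mitochondrially encoded members in each of the 20 mice, with the mean and SD of each group. Levels are in CPM and in UMIs per cell. The nuclear sums lie higher in both ATV:4D9 groups, while the mitochondrially encoded sums in CPM spread with the pool.

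Split by complex, the groups are given in the order WT ATV:ISO, WT ATV:4D9, AppSAA ATV:ISO, AppSAA 4D9 and AppSAA ATV:4D9. Complex II summed to 334 ± 7.604, 408 ± 15.6, 312 ± 8.60, 312 ± 5.63 and 379 ± 20.4 CPM. The nuclear members of complex III summed to 1411 ± 87.2, 2137 ± 105, 1777 ± 137, 1786 ± 140.2 and 2147 ± 152 CPM. Those of complex IV summed to 2935 ± 135, 4571 ± 187, 4246 ± 271, 4284 ± 276 and 4815 ± 256 CPM and those of complex V to 3416 ± 167, 5870.1 ± 219.8, 4166 ± 265, 4175 ± 281 and 5678 ± 414 CPM. The AppSAA ATV:ISO mean was above the WT ATV:ISO mean for complexes III, IV and V and below it for complex II.

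Genes were then tested singly across mice on UMIs summed per mouse, with edgeR over all 14058 genes that passed a filter on low counts. 54 of the 55 members passed, and Cox8b, a muscle isoform of complex IV, did not, with at most 0.0940 CPM in any mouse. A gene was called at a Benjamini-Hochberg adjusted p under 0.05. A fold change compares a gene with the bulk of the other genes through the trimmed mean scaling and does not measure UMIs per cell, and for small changes its sign can differ from that of the CPM values, as for Sdha below. With the library total alone as the scale, the median over all genes shifted from -0.051 to -0.17 for ATV:4D9 in WT mice and from -0.056 to -0.24 for the genotype, and member fold changes shifted with it. The comparisons below share groups of mice and are not independent of each other.

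In WT mice, ATV:4D9 against ATV:ISO raised 44 and lowered 3 of the 54 members, while 30.8% of all genes tested rose and 32.5% fell. The rises covered 3 of 4 members of complex II, 9 of 12 nuclear members of complex III, Cycs, 12 of 14 nuclear members of complex IV, all 17 of complex V and 2 of the 6 mitochondrially encoded members. The 3 that fell were Uqcc1, Uqcc3 and Cox7a2l. The median log2 fold change was 0.86 over nuclear members and 0.34 over mitochondrially encoded members, against -0.051 over all genes, and the mitochondrially encoded median was 0.21 to 0.43 with 1 mouse left out, lowest without WT ATV:4D9 mouse 4. For comparison, 33 of 36 nuclear subunits of complex I rose, with a median of 0.62.

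Amyloid genotype alone, AppSAA against WT with ATV:ISO in both, raised 34 members and lowered 1, against 14.4% and 13.7% of all genes. The rises covered 6 nuclear members of complex III, 11 of 14 of complex IV, 14 of 17 of complex V and 3 mitochondrially encoded members, and none of the 4 members of complex II. Cycs was not called either, and Uqcc1 fell. In CPM, 33 of the 49 nuclear members were higher and 9 lower in AppSAA ATV:ISO than in WT ATV:ISO mice in 4 of 4 pools, 27 and 2 of them without overlap. The 9 were Sdha, Sdhb, Sdhc, Sdhd, Uqcrc1, Uqcrc2, Cyc1, Uqcc1 and Atp5f1. Of these, Uqcc1 and Atp5f1 did not overlap, and only Uqcc1 was called lower. The fold changes of the 4 complex II members, Uqcrc2 and Atp5f1 lay above 0, so their sign rests on the scaling. Here and below, counts of members by pool or by overlap lack the share of all genes, so they have no background to be read against. The median log2 fold change was 0.44 over nuclear and 0.53 over mitochondrially encoded members, against -0.056 over all genes and 0.33 over nuclear subunits of complex I, of which 18 of 36 rose.

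In AppSAA mice, ATV:4D9 against ATV:ISO raised 37 members and lowered 3, all nuclear, against 27.9% and 27.1% of all genes. The rises covered 3 members of complex II, 8 of complex III, Cycs, 8 of complex IV and all 17 nuclear members of complex V, and the 3 that fell were Uqcrh, Uqcc3 and Cox7a2l. The median log2 fold change was 0.44 over nuclear and -0.036 over mitochondrially encoded members, and the latter changed sign with the mice, from -0.13 without AppSAA ATV:4D9 mouse 3 to 0.095 without AppSAA ATV:4D9 mouse 1, and was also above 0 without AppSAA ATV:ISO mouse 3 or 4 or AppSAA ATV:4D9 mouse 2. Without the pool 3 mouse rich in haemoglobin transcripts, 40 members were called. Of all genes, 6777 to 7522 were called with 1 mouse of these groups left out. 4D9 without the transport vehicle changed none of the 54 members against ATV:ISO by edgeR, with 0% of all genes called and 0 members by DESeq2 or limma-voom, and at an unadjusted p under 0.05 it gave 1 member, Cox6b2 (log2 fold change 0.53). Set against 4D9, ATV:4D9 raised 37 members and lowered 4 (27.6% and 26.7% of all genes), the fourth being Cox6b2, a testis isoform of complex IV, at -0.76 (adjusted p = 0.0098), a call lost without AppSAA 4D9 mouse 2. 41 members were called in that comparison without the pool 3 mouse, and 6624 to 7510 of all genes with 1 mouse left out.

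**Figure D2:**
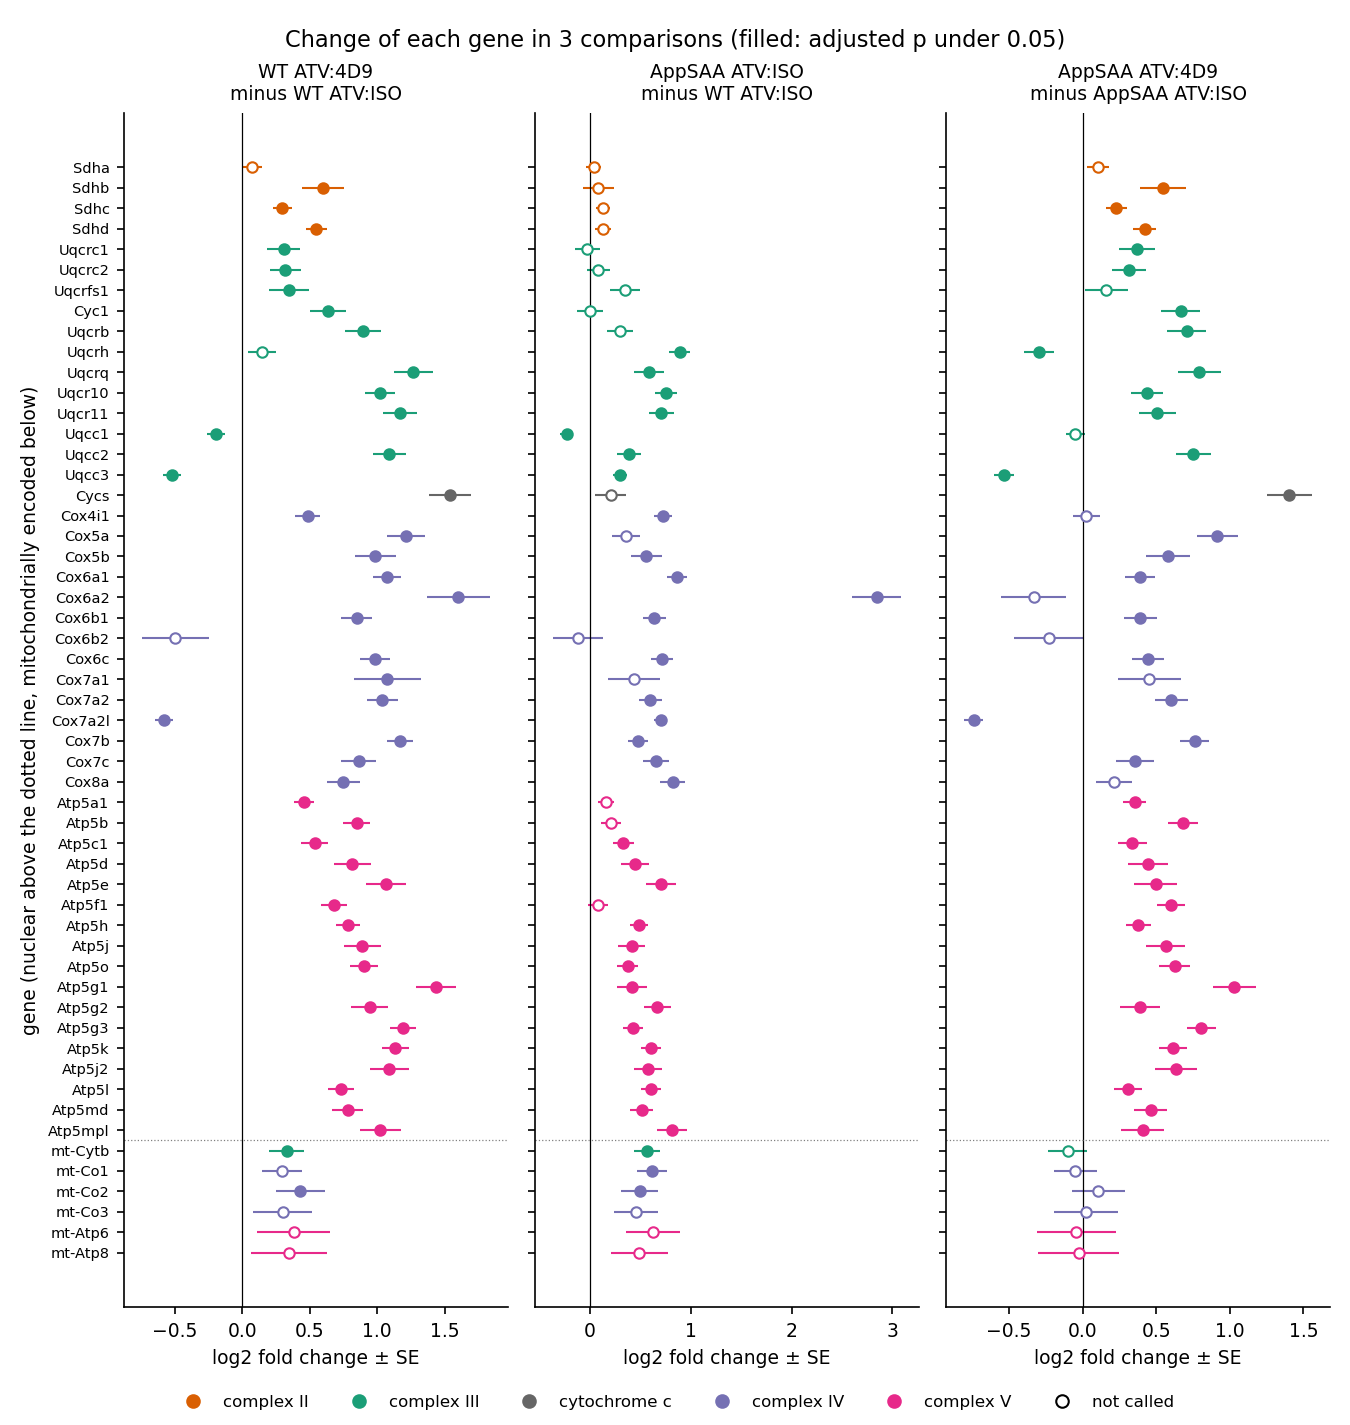
Log2 fold change with its standard error for each of the 54 tested members, ordered by complex, in WT ATV:4D9 against WT ATV:ISO, AppSAA ATV:ISO against WT ATV:ISO and AppSAA ATV:4D9 against AppSAA ATV:ISO, with called members marked. All 17 nuclear members of complex V lie above 0 in each comparison on this scale (for Atp5a1 and Atp5f1 with genotype the CPM values went the other way), while Cox7a2l and Uqcc3 lie below 0 with ATV:4D9 in both genotypes and above 0 with the AppSAA genotype.

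In complex II, 3 of 4 members rose with ATV:4D9 in each genotype and none was called between genotypes under ATV:ISO. Sdhb, the iron-sulfur subunit, rose most in WT mice, from 129.5, 120.3, 101 and 104 CPM to 181, 158, 148 and 149 CPM (log2 fold change 0.60 ± 0.16, adjusted p = 0.0023). Every ATV:4D9 mouse was above every ATV:ISO mouse. In AppSAA mice Sdhb was at 122, 107, 94.3 and 99.6 CPM with ATV:ISO, 118, 115, 93.9 and 92.1 with 4D9 and 175, 143, 133 and 134 with ATV:4D9, a rise of 0.55 ± 0.15 on the log2 scale for ATV:4D9 over ATV:ISO (adjusted p = 0.00549). Sdhc and Sdhd, which anchor the complex in the membrane, also rose with ATV:4D9, by 0.30 and 0.55 in WT and by 0.23 and 0.42 in AppSAA mice. Sdha, the flavoprotein that oxidises succinate, was at 91.8, 83.4, 101 and 103 CPM in WT ATV:ISO and 90.3, 83.3, 95.8 and 97.8 in WT ATV:4D9 mice, which overlapped (log2 fold change 0.074 ± 0.076, adjusted p = 0.413). In AppSAA mice it was at 81.8, 76.1, 92.2 and 91.3 CPM with ATV:ISO, 79.3, 75.7, 93.0 and 90.1 with 4D9 and 84.0, 79.6, 93.9 and 91.6 with ATV:4D9, and was not called either (log2 fold change 0.11 for ATV:4D9 over ATV:ISO, adjusted p = 0.247). With the pool as a block, Sdha was called in AppSAA mice, at 0.10 (adjusted p = 0.00933), and Sdhc and Sdhd in the comparison of genotypes, at 0.13 (adjusted p = 0.0186) and 0.13 (adjusted p = 0.0337). In CPM, by contrast, both genes were lower in AppSAA ATV:ISO than in WT ATV:ISO mice in 4 of 4 pools (Sdhc 53.6 ± 4.23 against 55.8 ± 5.25, Sdhd 67.5 ± 1.85 against 70.1 ± 0.781 CPM). The Sdhc calls were lost when the library total alone set the scale.

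Among the subunits of complex III, the small subunits Uqcrq, Uqcr11, Uqcr10 and Uqcrb had the largest rises with ATV:4D9 in WT mice, and Uqcrh, also a small subunit, had the smallest change. Uqcrq went from 165, 176, 139 and 157 CPM in WT ATV:ISO to 384, 349.6, 327 and 358 in WT ATV:4D9 mice (log2 fold change 1.27 ± 0.15, adjusted p = 2.82e-07). Uqcr10 went from 111, 123.02, 106 and 107 CPM to 219.5, 215, 194 and 212 (log2 fold change 1.02 ± 0.11, adjusted p = 1.22e-07), and Uqcr11 from 153, 166, 135 and 146 to 319.6, 325, 291 and 312 (log2 fold change 1.17 ± 0.13, adjusted p = 1.02e-07). For all 3 genes the WT groups did not overlap. All 3 were already higher in AppSAA than in WT mice given ATV:ISO, by 0.58, 0.75 and 0.71 on the log2 scale. Uqcrq was at 222, 234, 186 and 198 CPM with ATV:ISO, 234, 236, 182 and 196 with 4D9 and 404, 345, 307 and 328 with ATV:4D9. Uqcr10 was at 159, 192, 153 and 159.6 CPM with ATV:ISO, 169, 187, 153 and 160.4 with 4D9 and 219, 229, 199.8 and 209.9 with ATV:4D9. Uqcr11 was at 206, 254, 193 and 207 CPM with ATV:ISO, 217, 238, 190.0 and 200.04 with 4D9 and 311, 312, 261 and 281 with ATV:4D9. In AppSAA mice ATV:4D9 raised Uqcrq by 0.79 ± 0.14, Uqcr10 by 0.44 ± 0.11 and Uqcr11 by 0.51 ± 0.12 on the log2 scale (adjusted p = 0.000115, 0.00214 and 0.00176). Uqcrb, another small subunit, rose by 0.90 in WT and 0.71 in AppSAA mice.

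The larger subunits of complex III lay between these. The core proteins Uqcrc1 and Uqcrc2 rose by 0.31 and 0.32 with ATV:4D9 in WT mice (adjusted p = 0.0363 and 0.0201), and the Rieske iron-sulfur protein Uqcrfs1 by 0.35 (adjusted p = 0.0473), and each of these 3 calls was lost when single mice were left out. For Uqcrc1 these were WT ATV:ISO mouse 2, 3 or 4 or WT ATV:4D9 mouse 1 or 4, for Uqcrc2 WT ATV:ISO mouse 3 or WT ATV:4D9 mouse 1 and for Uqcrfs1 WT ATV:ISO mouse 2, 3 or 4 or WT ATV:4D9 mouse 1 or 2, with adjusted p up to 0.133, 0.0839 and 0.171 over all alternatives. Cyc1, the haem-bearing cytochrome c1 that hands electrons to cytochrome c, went from 105, 96.6, 91.9 and 92.7 CPM in WT ATV:ISO to 155, 134, 129 and 135 in WT ATV:4D9 mice (log2 fold change 0.63 ± 0.13, adjusted p = 0.00028). It was at 93.6, 86.0, 78.5 and 80.4 CPM in AppSAA ATV:ISO, 93.8, 87.2, 79.3 and 78.6 in AppSAA 4D9 and 150.3, 119, 119.9 and 120.2 in AppSAA ATV:4D9 mice, a rise of 0.67 ± 0.13 with ATV:4D9 (adjusted p = 0.000238). Cyc1 was not called between genotypes with ATV:ISO (-0.0041, adjusted p = 0.987). Uqcrh, the hinge protein between cytochromes c1 and c, is given by mouse although the rule for named genes did not select it, and it was chosen after its values were seen. It was at 313, 315, 281 and 298 CPM in WT ATV:ISO and 326, 291, 295 and 323 in WT ATV:4D9 mice, which overlapped (log2 fold change 0.15, adjusted p = 0.213, and 0.15, adjusted p = 0.0452 with the pool as a block). In AppSAA mice it was at 484, 543, 455 and 485 CPM with ATV:ISO, 546, 514, 463 and 478 with 4D9 and 378, 387, 388 and 376 with ATV:4D9. Uqcrh rose with genotype by 0.89 ± 0.10 and fell by 0.295 with ATV:4D9 in AppSAA mice (adjusted p = 1.54e-06 and 0.0193), while its UMIs per cell were 5.65 ± 0.487 with ATV:ISO and 6.54 ± 0.418 with ATV:4D9. The fall was not called without AppSAA ATV:ISO mouse 2 or AppSAA ATV:4D9 mouse 4 (adjusted p up to 0.0869 over all alternatives).

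Of the 3 assembly factors of complex III, 1 rose and 2 fell with ATV:4D9 in WT mice. Uqcc2 rose from 89.6, 90.9, 77.7 and 87.4 CPM in WT ATV:ISO to 172, 167, 165 and 176 in WT ATV:4D9 mice (log2 fold change 1.09 ± 0.12, adjusted p = 1.29e-07). In AppSAA mice it was at 98.001, 112, 92.1 and 95.3 CPM with ATV:ISO, 109, 110.5, 89.7 and 94.0 with 4D9 and 174, 165, 146 and 151 with ATV:4D9 (log2 fold change 0.75 ± 0.12 for ATV:4D9 over ATV:ISO, adjusted p = 2.1e-05). Uqcc3 fell with ATV:4D9 in both genotypes. It was at 61.9, 57.3, 58.1 and 58.1 CPM in WT ATV:ISO and 37.9, 38.2, 36.9 and 38.6 in WT ATV:4D9 mice (log2 fold change -0.52 ± 0.068, adjusted p = 1.48e-06). It was at 61.7, 65.0, 64.0 and 63.6 CPM in AppSAA ATV:ISO, 65.1, 62.2, 64.3 and 64.9 in AppSAA 4D9 and 35.8, 44.1, 44.7 and 43.3 in AppSAA ATV:4D9 mice (log2 fold change -0.53 ± 0.067, adjusted p = 1.44e-06 for ATV:4D9 over ATV:ISO). These falls were in its share of UMIs. Its UMIs per cell were 0.506 ± 0.0336 in WT ATV:ISO and 0.636 ± 0.0675 in WT ATV:4D9 mice, and 0.733 ± 0.0646 in AppSAA ATV:ISO and 0.716 ± 0.0668 in AppSAA ATV:4D9 mice, which overlapped. Uqcc1 fell by 0.195 in WT mice given ATV:4D9 (adjusted p = 0.0125) and by 0.230 with genotype (adjusted p = 0.0113), and both calls were lost when genes of low count were kept in the fit.

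Cycs encodes cytochrome c, the carrier between complexes III and IV that also takes part in caspase activation when it leaves mitochondria, and its promoter is among those printed above. It was at 86.3, 80.0, 71.3 and 70.9 CPM in WT ATV:ISO and 228, 194, 197 and 207 in WT ATV:4D9 mice (log2 fold change 1.54 ± 0.16, adjusted p = 5.05e-08). AppSAA ATV:ISO mice had 84.7, 81.9, 71.9 and 74.0 CPM, 4D9 mice at 87.3, 87.2, 72.5 and 70.5 and ATV:4D9 mice at 250.2, 183, 175 and 175 (log2 fold change 1.41 ± 0.16, adjusted p = 2.6e-07 for ATV:4D9 over ATV:ISO). The 8 ATV:4D9 mice of both genotypes lay above the 12 other mice. Between genotypes with ATV:ISO, Cycs was not called at 0.20 ± 0.15 (adjusted p = 0.351), and with the pool as a block it was, at 0.21 (adjusted p = 0.0385). Its UMIs per cell were 0.661 ± 0.0203 in WT ATV:ISO, 3.47 ± 0.422 in WT ATV:4D9, 0.896 ± 0.0240 in AppSAA ATV:ISO, 0.937 ± 0.0617 in AppSAA 4D9 and 3.36 ± 0.774 in AppSAA ATV:4D9 mice.

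Among the general subunits of complex IV, Cox5a, Cox6a1, Cox7a2 and Cox7b rose by over 1 on the log2 scale with ATV:4D9 in WT mice. Cox5a went from 155, 146, 136 and 138 CPM in WT ATV:ISO to 344, 283, 302 and 301 in WT ATV:4D9 mice (log2 fold change 1.21 ± 0.14, adjusted p = 2.64e-07), and was at 169.8, 172, 151 and 154 in AppSAA ATV:ISO, 184, 168, 153 and 149 in AppSAA 4D9 and 354, 271, 263 and 270.2 in AppSAA ATV:4D9 mice. Cox6a1 went from 172, 159, 158 and 159.7 CPM to 331, 309, 302 and 315 in WT mice (log2 fold change 1.07 ± 0.10, adjusted p = 1.79e-08), and in AppSAA mice was at 271, 267, 251.2 and 246 CPM with ATV:ISO, 271, 277, 237 and 248 with 4D9 and 342, 332, 304 and 311 with ATV:4D9. No WT ATV:ISO mouse reached the level of a WT ATV:4D9 mouse in either gene. Cox7a2 was at 177, 188, 163 and 169.6 CPM and 347, 319, 315 and 339 in the WT groups (log2 fold change 1.04 ± 0.11, adjusted p = 1.39e-07), and in AppSAA mice at 223, 260.2, 213 and 231 CPM with ATV:ISO, 244, 256, 214 and 229 with 4D9 and 370.3, 336, 306 and 326 with ATV:4D9. Cox7b was at 129, 139, 127 and 136 CPM and 275, 257, 275 and 295 in the WT groups (log2 fold change 1.17 ± 0.099, adjusted p = 3.32e-09), and in AppSAA mice at 157, 173, 155 and 165 CPM with ATV:ISO, 171, 173, 153 and 163 with 4D9 and 289.7, 248, 250.2 and 259.7 with ATV:4D9. These 2 genes did not overlap between the WT groups either. With genotype alone these 4 genes had log2 fold changes of 0.36, 0.86, 0.60 and 0.48, of which that of Cox5a was not called (adjusted p = 0.0595, and 0.000422 with the pool as a block). ATV:4D9 over ATV:ISO in AppSAA mice gave 0.92, 0.39, 0.60 and 0.76, all called.

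Cox4i1, the general isoform of subunit 4, rose with ATV:4D9 in WT mice and with genotype, and was not called with ATV:4D9 in AppSAA mice. It was at 598, 566, 546 and 563 CPM in WT ATV:ISO and 785, 686, 732 and 733 in WT ATV:4D9 mice (log2 fold change 0.48 ± 0.092, adjusted p = 0.000114). It was at 811, 864, 813 and 818 CPM in AppSAA ATV:ISO, 874, 842, 805 and 808 in AppSAA 4D9 and 826, 777, 814 and 779 in AppSAA ATV:4D9 mice. The AppSAA groups overlapped, and the log2 fold change was 0.73 ± 0.092 with genotype (adjusted p = 4.76e-06) and 0.023 ± 0.091 with ATV:4D9 in AppSAA mice (adjusted p = 0.853). Its gene overlaps on the same strand with the annotated gene Gm20388, so its reads could be split by the counting. The remaining general subunits Cox5b, Cox6b1, Cox6c, Cox7c and Cox8a all rose with ATV:4D9 in WT mice, by 0.75 (Cox8a) to 0.99 (Cox5b), and with genotype, by 0.56 (Cox5b) to 0.82 (Cox8a). In AppSAA mice given ATV:4D9, Cox8a was not called (0.21, adjusted p = 0.145, and 0.21, adjusted p = 0.00517 with the pool as a block).

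Cox6a2, the heart and skeletal muscle isoform of subunit 6a, had the largest fold changes of complex IV in WT ATV:4D9 and in AppSAA ATV:ISO mice against WT ATV:ISO mice. It was at 16.7, 33.1, 14.2 and 17.8 CPM in WT ATV:ISO and 62.7, 52.0, 54.4 and 60.4 in WT ATV:4D9 mice (log2 fold change 1.60 ± 0.24, adjusted p = 6.38e-06). It was at 122.8, 168, 119 and 107 CPM in AppSAA ATV:ISO, 154, 151, 127 and 104 in AppSAA 4D9 and 89.2, 126, 98.9 and 79.3 in AppSAA ATV:4D9 mice. The 12 AppSAA mice all lay above the 8 WT mice. The genotype difference was 2.85 ± 0.24 (adjusted p = 2.47e-08), and ATV:4D9 against ATV:ISO in AppSAA mice gave -0.33 ± 0.22 (adjusted p = 0.213). ATV:4D9 against 4D9 in AppSAA mice gave -0.40 (adjusted p = 0.139), and -0.39 (adjusted p = 0.0258) with the pool as a block. The gene lies on the minus strand of chromosome 7 (GRCm38, 128205435 to 128206387) within Itgad, an integrin gene on the plus strand, and downstream of Itgax, which encodes CD11c, a marker of activated microglia. Itgax was at 20.8 ± 5.11 CPM in WT ATV:ISO, 40.1 ± 8.04 in WT ATV:4D9, 158 ± 26.4 in AppSAA ATV:ISO, 163 ± 39.2 in AppSAA 4D9 and 92.0 ± 20.5 in AppSAA ATV:4D9 mice, in the same order as Cox6a2. Itgad stayed at or below 0.290 CPM in every mouse. The part of neighbouring transcripts in the Cox6a2 counts was not tested.

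Cox7a2l, described as a factor that joins complexes III and IV into supercomplexes, was the member of complex IV that fell with ATV:4D9 against ATV:ISO. Supercomplexes were not measured, and whether the protein has this role in mice of this strain was not tested. It was at 338, 328, 337 and 335 CPM in WT ATV:ISO and 203, 196, 209.8 and 216 in WT ATV:4D9 mice (log2 fold change -0.58 ± 0.067, adjusted p = 2.7e-07). It was at 448, 476, 488 and 501 CPM in AppSAA ATV:ISO, 482, 449, 503 and 494 in AppSAA 4D9 and 233, 268, 306 and 285 in AppSAA ATV:4D9 mice (log2 fold change -0.74 ± 0.067, adjusted p = 1.48e-08 for ATV:4D9 over ATV:ISO). All ATV:4D9 mice lay below all mice of the same genotype without it, and with ATV:ISO the AppSAA mice lay above the WT mice by 0.70 ± 0.067 on the log2 scale (adjusted p = 1.2e-07). Per cell, Cox7a2l UMIs were 2.88 ± 0.240 in WT ATV:ISO and 3.47 ± 0.494 in WT ATV:4D9 mice, and 5.52 ± 0.656 in AppSAA ATV:ISO and 4.67 ± 0.600 in AppSAA ATV:4D9 mice. The share of UMIs moved with ATV:4D9 in the opposite direction to the UMIs per cell in WT mice, and in the same direction in AppSAA mice. Cox7a1, the muscle isoform of subunit 7a, was scarce. It was at 0.408, 0.928, 0.512 and 0.636 CPM in WT ATV:ISO and 1.34, 1.12, 1.30 and 1.11 in WT ATV:4D9 mice (log2 fold change 1.08 ± 0.25, adjusted p = 0.000733), and in AppSAA mice at 0.833, 0.627, 0.725 and 0.807 CPM with ATV:ISO, 1.16, 0.997, 0.793 and 0.592 with 4D9 and 0.980, 1.09, 0.871 and 0.927 with ATV:4D9 (0.45, adjusted p = 0.0822 for ATV:4D9 over ATV:ISO, and 0.43, adjusted p = 0.0428 with the pool as a block).

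**Figure D3:**
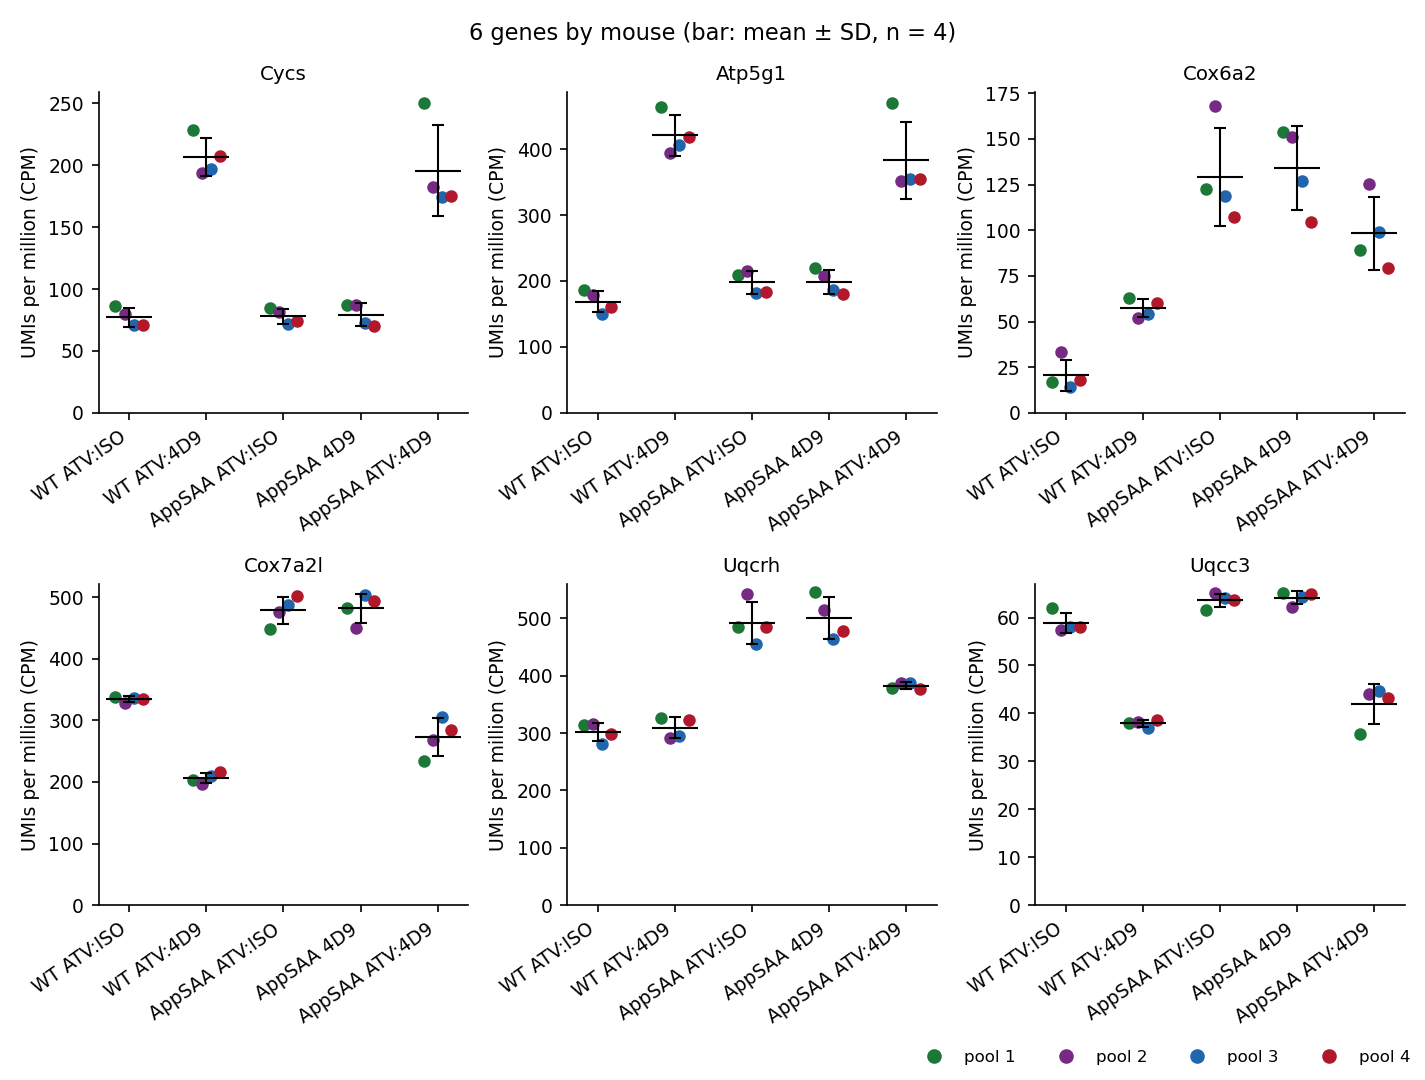
Level of Cycs, Atp5g1, Cox6a2, Cox7a2l, Uqcrh and Uqcc3 in each of the 20 mice (CPM, axis from 0), with the mean and SD of each of the 5 groups. Cycs and Atp5g1 are higher in both ATV:4D9 groups, Cox7a2l and Uqcc3 are lower in them, and Cox6a2 and Uqcrh are higher in AppSAA than in WT mice.

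All 17 nuclear members of complex V rose with ATV:4D9 in both genotypes. Atp5g1, Atp5g2 and Atp5g3 each encode the same mature subunit c, which forms the proton-driven ring. Atp5g1, whose promoter is printed above, was at 186, 178, 149.96 and 160.5 CPM in WT ATV:ISO and 464, 394, 407 and 418 in WT ATV:4D9 mice (log2 fold change 1.43 ± 0.15, adjusted p = 5.17e-08). In AppSAA mice it was at 209, 215, 182 and 184 CPM with ATV:ISO, 219, 208, 186 and 180.1 with 4D9 and 471, 352, 354 and 355 with ATV:4D9 (log2 fold change 1.03 ± 0.14, adjusted p = 5.78e-06 for ATV:4D9 over ATV:ISO). Neither genotype had an overlap between ATV:4D9 mice and the rest. Atp5g2 was at 401, 403, 341 and 334 CPM in WT ATV:ISO and 734, 663, 622 and 613 in WT ATV:4D9 mice (log2 fold change 0.95 ± 0.14, adjusted p = 5.28e-06), and in AppSAA mice at 537, 575, 478 and 476 CPM with ATV:ISO, 573, 545, 476 and 465 with 4D9 and 719, 673, 592 and 597 with ATV:4D9. Atp5g3 was at 96.7, 97.1, 96.6 and 99.3 CPM in WT ATV:ISO and 218, 193, 205 and 203 in WT ATV:4D9 mice (log2 fold change 1.19 ± 0.099, adjusted p = 2.6e-09), and in AppSAA mice at 116, 121, 108 and 115 CPM with ATV:ISO, 114, 119, 108 and 109 with 4D9 and 213, 182, 177 and 192 with ATV:4D9. In AppSAA mice ATV:4D9 over ATV:ISO gave 0.39 ± 0.14 for Atp5g2 (adjusted p = 0.0192) and 0.81 ± 0.098 for Atp5g3 (adjusted p = 9.11e-07). The Atp5g2 call was lost without AppSAA ATV:ISO mouse 3 or 4 or AppSAA ATV:4D9 mouse 1 (adjusted p up to 0.0916 over all alternatives). With genotype alone the 3 genes rose by 0.42, 0.67 and 0.43, and the Atp5g1 call was lost without WT ATV:ISO mouse 3 or 4 or AppSAA ATV:ISO mouse 1 or 2 and with the library total alone (adjusted p up to 0.115).

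Of the small membrane subunits around the ring, Atp5k (subunit e), Atp5j2 (subunit f) and Atp5mpl rose by over 1 in WT mice. Atp5k was at 94.4, 93.7, 91.6 and 95.5 CPM in WT ATV:ISO and 200.02, 179.8, 190.3 and 189 in WT ATV:4D9 mice (log2 fold change 1.13 ± 0.098, adjusted p = 4.2e-09), and in AppSAA mice at 128, 127, 127 and 119 CPM with ATV:ISO, 133, 134, 120.4 and 117 with 4D9 and 197, 188, 171 and 172 with ATV:4D9. Atp5j2 was at 220.0, 244, 187 and 199 CPM in WT ATV:ISO and 432, 454, 384 and 404 in WT ATV:4D9 mice (log2 fold change 1.09 ± 0.14, adjusted p = 1.5e-06), and in AppSAA mice at 284, 319, 252 and 258 CPM with ATV:ISO, 290.2, 329, 240.1 and 261 with 4D9 and 445, 462, 361 and 379.9 with ATV:4D9. The groups of WT mice did not overlap in these genes. Atp5mpl was at 121, 138, 102 and 116 CPM in WT ATV:ISO and 235, 238, 199 and 224 in WT ATV:4D9 mice (log2 fold change 1.02 ± 0.15, adjusted p = 5.84e-06), and in AppSAA mice at 175, 225, 158 and 176 CPM with ATV:ISO, 186, 217, 161 and 171 with 4D9 and 249, 256, 202 and 219 with ATV:4D9. ATV:4D9 over ATV:ISO in AppSAA mice gave 0.62 for Atp5k, 0.64 for Atp5j2 and 0.41 for Atp5mpl, all called, and the Atp5mpl call was lost without AppSAA ATV:ISO mouse 3 or 4 or AppSAA ATV:4D9 mouse 1 or 2 (adjusted p up to 0.0938). Atp5l and Atp5md, subunits g and DAPIT, rose by 0.73 and 0.78 in WT and 0.31 and 0.46 in AppSAA mice.

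Of the subunits of the catalytic head and its central shaft, Atp5e (epsilon, in the shaft) rose most with ATV:4D9 in WT mice, from 328, 361, 288 and 295 CPM in WT ATV:ISO to 641, 651, 574 and 592 in WT ATV:4D9 mice (log2 fold change 1.06 ± 0.15, adjusted p = 3.21e-06). In AppSAA mice it was at 449.7, 551, 397 and 423 CPM with ATV:ISO, 478, 536, 396 and 409 with 4D9 and 666, 676, 545 and 561 with ATV:4D9. Atp5a1 and Atp5b, which form the ring of alpha and beta subunits that makes ATP, rose by 0.46 ± 0.077 and 0.85 ± 0.10 in WT mice and by 0.35 ± 0.077 and 0.68 ± 0.10 in AppSAA mice. With genotype alone they were not called (0.16, adjusted p = 0.141 and 0.21, adjusted p = 0.124), and were with the pool as a block (0.16, adjusted p = 0.00649 and 0.21, adjusted p = 0.00232). In CPM Atp5a1 was at 227 ± 12.2 in WT ATV:ISO and 223 ± 8.86 in AppSAA ATV:ISO mice, lower in 3 of 4 pools, so the sign of its difference rests on the scaling. Atp5b was at 242 ± 21.7 and 247 ± 20.8. The other shaft subunits, Atp5c1 and Atp5d, rose by 0.54 and 0.81 in WT mice given ATV:4D9, and the peripheral stalk members Atp5f1, Atp5h, Atp5j and Atp5o by 0.68, 0.78, 0.89 and 0.90. Atp5o overlaps Donson and Cryzl1 on its own strand, so its count is uncertain. With genotype, Atp5f1 was not called (0.08, adjusted p = 0.582). In CPM it was lower without overlap, at 221, 225, 215 and 223 in AppSAA ATV:ISO against 245, 237, 234 and 236 in WT ATV:ISO mice. Atpif1, which encodes an inhibitor that stops the ATP synthase from hydrolysing ATP and is no member by the rule, was at 222, 243, 198 and 205 CPM in WT ATV:ISO, 366, 377, 328 and 342 in WT ATV:4D9, 259, 295, 229 and 239.9 in AppSAA ATV:ISO, 263, 286, 232 and 236 in AppSAA 4D9 and 337, 348, 280.5 and 304 in AppSAA ATV:4D9 mice. The WT groups did not overlap, the AppSAA groups did, and Atpif1 rose by 0.81 (adjusted p = 1.36e-05) with ATV:4D9 in WT mice, 0.42 (adjusted p = 0.0166) with genotype and 0.38 (adjusted p = 0.0151) with ATV:4D9 in AppSAA mice, the last call being lost without AppSAA ATV:ISO mouse 3 or 4 or AppSAA ATV:4D9 mouse 1 and that with genotype without WT ATV:ISO mouse 3 or 4 or AppSAA ATV:ISO mouse 2.

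The 6 mitochondrially encoded members are transcribed as parts of long precursors, and in each of the 6 the mice of pools 3 and 4 lay above those of pools 1 and 2 in every group. mt-Cytb, cytochrome b of complex III, was at 1981, 1669.9, 2036 and 2181 CPM in WT ATV:ISO, 2309, 1854, 2319.6 and 2621 in WT ATV:4D9, 2535, 2126, 2615 and 2983 in AppSAA ATV:ISO, 2560.2, 2136, 2578 and 3074 in AppSAA 4D9 and 2041, 1835, 2449 and 2768 in AppSAA ATV:4D9 mice. mt-Co1, the catalytic subunit of complex IV, was at 1737, 1788, 2328 and 2278 CPM in WT ATV:ISO, 1929.7, 1912, 2584 and 2750.5 in WT ATV:4D9, 2223, 2358, 3137 and 3251 in AppSAA ATV:ISO, 2338, 2352, 3050.5 and 3266 in AppSAA 4D9 and 1919, 2089, 3009.7 and 3082 in AppSAA ATV:4D9 mice. Within each pool both were higher in WT ATV:4D9 than in WT ATV:ISO and higher in AppSAA ATV:ISO than in WT ATV:ISO mice. mt-Co2, which takes electrons from cytochrome c, was at 1443, 1421, 1925 and 2037 CPM in WT ATV:ISO, 1826, 1668, 2230.4 and 2733 in WT ATV:4D9, 1776, 1670.1, 2373 and 2643 in AppSAA ATV:ISO, 1747, 1704, 2323 and 2785 in AppSAA 4D9 and 1695, 1646, 2494 and 2837 in AppSAA ATV:4D9 mice. mt-Co3 was at 1965, 1804, 2694 and 2909.7 CPM in WT ATV:ISO, 2257, 1941, 2904 and 3488 in WT ATV:4D9, 2334, 2102, 3267 and 3662 in AppSAA ATV:ISO, 2373, 2153, 3198 and 3871 in AppSAA 4D9 and 2046, 1958, 3292 and 3704 in AppSAA ATV:4D9 mice. Both genes were again higher in WT ATV:4D9 and in AppSAA ATV:ISO than in WT ATV:ISO mice of the same pool. mt-Atp6, subunit a of the proton channel, was at 1393, 1404, 2303 and 2446 CPM in WT ATV:ISO, 1653, 1651, 2654 and 3079 in WT ATV:4D9, 1843, 1877, 3033 and 3507 in AppSAA ATV:ISO, 1810.0, 1863, 2959.9 and 3504 in AppSAA 4D9 and 1546, 1649.6, 2933 and 3350.4 in AppSAA ATV:4D9 mice. mt-Atp8, another membrane subunit of complex V, was at 15.2, 24.4, 37.7 and 31.4 CPM in WT ATV:ISO, 18.7, 30.4, 38.8 and 40.1 in WT ATV:4D9, 20.7, 31.9, 41.7 and 39.5 in AppSAA ATV:ISO, 19.3, 30.9, 43.0 and 39.7 in AppSAA 4D9 and 16.4, 29.4, 41.7 and 38.9 in AppSAA ATV:4D9 mice. mt-Atp8, mt-Atp6 and mt-Co3 adjoin or overlap on the same strand, so their reads are not independent.

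With ATV:4D9 in WT mice, mt-Cytb (0.33, adjusted p = 0.0323) and mt-Co2 (0.43, adjusted p = 0.0455) rose. The mt-Cytb call was lost without WT ATV:ISO mouse 2 or 3 or WT ATV:4D9 mouse 1 or 4, the mt-Co2 call without WT ATV:ISO mouse 1, 2 or 3 or WT ATV:4D9 mouse 3 or 4, and both with the library total alone (adjusted p up to 0.187 and 0.207). mt-Co1, mt-Co3, mt-Atp6 and mt-Atp8 were not called, at 0.29 (adjusted p = 0.091), 0.30 (adjusted p = 0.243), 0.38 (adjusted p = 0.226) and 0.35 (adjusted p = 0.293). mt-Co1 was called without WT ATV:4D9 mouse 2, at 0.38 (adjusted p = 0.0361). All 6 were higher in 4 of 4 pools, and with the pool as a block all 6 were called (mt-Co1 0.28, adjusted p = 9.51e-05, mt-Atp6 0.37, adjusted p = 2.11e-06). With genotype, mt-Cytb (0.57, adjusted p = 0.00253), mt-Co1 (0.61, adjusted p = 0.00376) and mt-Co2 (0.49, adjusted p = 0.0492) rose, all 6 were again higher in 4 of 4 pools, and the block added mt-Co3, mt-Atp6 and mt-Atp8 (mt-Atp6 0.62, adjusted p = 1.52e-08). The mt-Co1 call with genotype was lost with the library total alone, at 0.43 (adjusted p = 0.053). The mt-Co2 call with genotype was lost without WT ATV:ISO mouse 1, 2 or 3 or AppSAA ATV:ISO mouse 3 or 4. With ATV:4D9 in AppSAA mice the log2 fold changes lay between -0.10 and 0.11, and none was called with or without the block. In CPM, mt-Cytb, mt-Co1, mt-Atp6 and mt-Atp8 were lower with ATV:4D9 than with ATV:ISO in 4 of 4 pools, with log2 ratios down to -0.31, -0.21, -0.25 and -0.34, all in pool 1, while mt-Co2 and mt-Co3 were lower in 2 pools and higher in 2. The same 4 were lower with ATV:4D9 than with 4D9 in 4 of 4 pools. Against 4D9 in AppSAA mice, mt-Cytb was called with the block, at -0.13 (adjusted p = 0.028).

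AppSAA ATV:4D9 against WT ATV:4D9 mice gave 4 of 54 members higher and none lower, a share near the background of 7.84% and 3.98% of all genes. The 4 were Uqcrh (0.45, adjusted p = 0.00546), Uqcc3 (0.28, adjusted p = 0.00779), Cox6a2 (0.91, adjusted p = 0.00942) and Cox7a2l (0.54, adjusted p = 9.96e-06). Cox7a2l and Uqcc3 are members that ATV:4D9 lowered, and Uqcrh and Cox6a2 are members that were high in AppSAA mice with any antibody. The Uqcc3 call was lost with the library total alone, at 0.15 (adjusted p = 0.0904). In CPM, 5 nuclear members were higher and 16 lower in 4 of 4 pools, 3 of each without overlap, again without the share of all genes. 4 members were called without the pool 3 mouse rich in haemoglobin transcripts, and 1103 to 1719 of all genes with 1 mouse left out. At an unadjusted p under 0.05, 6 members were higher, and the share of all genes at that threshold is not given. The median nuclear log2 fold change was 0.10, and -0.043 with the library total alone, against -0.0068 over all genes. It was 0.0078 without AppSAA ATV:4D9 mouse 1, 0.0628 without WT ATV:4D9 mouse 2 and 0.17 without WT ATV:4D9 mouse 1. With the pool as a block 18 members were called (31.4% of all genes), among them Cox4i1 (0.26, adjusted p = 0.00147), Cox8a (0.28, adjusted p = 0.0019) and mt-Co1 (0.27, adjusted p = 0.000843).

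**Figure D4:**
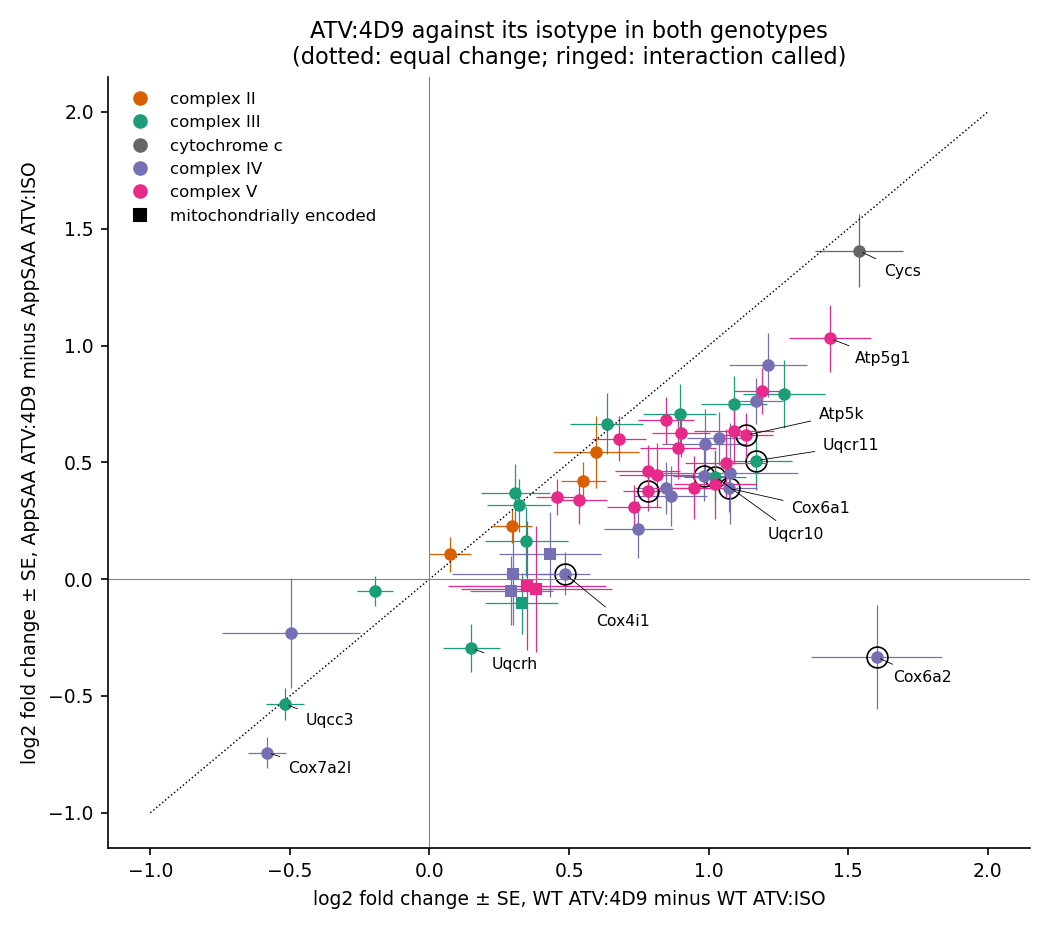
Log2 fold change of each member with ATV:4D9 against ATV:ISO in WT mice (horizontal axis) and in AppSAA mice (vertical axis), coloured by complex, with the dotted line marking equal change and rings marking members called for the interaction. Most nuclear members lie below the dotted line, Cycs lies near it, and Cox6a2 lies farthest below it.

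The difference between the 2 responses to ATV:4D9 was tested as an interaction of genotype and treatment. 8 members had a lower log2 change in AppSAA than in WT mice and none a higher one, against 5.35% and 3.79% of all genes. They were Cox6a2 (-1.94, adjusted p = 0.000605), Cox6a1 (-0.68, adjusted p = 0.00374), Atp5k (-0.52, adjusted p = 0.0189), Uqcr11 (-0.66, adjusted p = 0.0198), Uqcr10 (-0.58, adjusted p = 0.0207), Cox4i1 (-0.46, adjusted p = 0.0279), Cox6c (-0.54, adjusted p = 0.0315) and Atp5h (-0.40, adjusted p = 0.0473). 4 of them belong to complex IV, 2 to complex III and 2 to complex V, and all 8 rose with genotype under ATV:ISO. The genotype difference under ATV:ISO enters the interaction with a minus sign, so these rises are not a separate trait of the 8. Cycs did not show the difference (-0.13, adjusted p = 0.788), nor did Cox7a2l (-0.16, adjusted p = 0.355). The median over nuclear members was -0.38 and over mitochondrially encoded members -0.36. The count was 3 without AppSAA ATV:ISO mouse 2, 22 without AppSAA ATV:4D9 mouse 1, and 5 without WT ATV:ISO mouse 3 or 4, WT ATV:4D9 mouse 1 or AppSAA ATV:4D9 mouse 3, the mouse rich in haemoglobin transcripts. With the library total alone or by DESeq2 it was 19, for which the share of all genes is not given. With the pool as a block it was 37, all lower (30.5% of all genes). With 1 mouse left out, 969 to 1861 of all genes were called. The calls of Uqcr11 and Uqcr10 were lost without AppSAA ATV:ISO mouse 2 (adjusted p = 0.0504 and 0.0522). That of Cox4i1 was lost without WT ATV:ISO mouse 3 or 4 or WT ATV:4D9 mouse 1 or AppSAA ATV:ISO mouse 2 or AppSAA ATV:4D9 mouse 2 or 3, that of Cox6c without WT ATV:ISO mouse 3 or 4 or WT ATV:4D9 mouse 1 or 4 or AppSAA ATV:ISO mouse 2 or AppSAA ATV:4D9 mouse 3 and that of Atp5h without WT ATV:ISO mouse 2, 3 or 4 or WT ATV:4D9 mouse 1, 3 or 4 or AppSAA ATV:ISO mouse 1 or 2 or AppSAA ATV:4D9 mouse 2 or 3, with adjusted p up to 0.0655, 0.0775 and 0.106. The calls of Cox6a2, Cox6a1 and Atp5k held with each mouse left out.

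The deposited annotation assigns the cells to 6 clusters, numbered 0 to 5, whose shares differ between the groups. Clusters 0 and 3 held a median of 96.2% of the cells of a WT ATV:ISO mouse, 7.53% with ATV:4D9, 56% in AppSAA ATV:ISO, 54.4% in AppSAA 4D9 and 5.8% in AppSAA ATV:4D9 mice. Cluster 1 held 37.5% in AppSAA ATV:ISO and 40.2% in AppSAA 4D9 mice, 14.3% in AppSAA ATV:4D9 and 1.16% and 0.368% in WT ATV:ISO and WT ATV:4D9 mice. Clusters 2 and 4 held 47.4% and 38.9% in WT ATV:4D9 mice and 34.3% and 22.8% in AppSAA ATV:4D9 mice. Cluster 5 held 21.1% in AppSAA ATV:4D9 and 3.95% in WT ATV:4D9 mice. These clusters were made from the expression of the same cells, so levels by cluster are given without a test, over mice with at least 20 cells in the cluster.

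The nuclear sum was higher in clusters 1, 2, 4 and 5 than in clusters 0 and 3, and the complexes differed in where they were highest. The nuclear sum was 8747 ± 595 CPM in cluster 0, 8419.6 ± 846 in cluster 3, 12143 ± 903 in cluster 1, 12343 ± 1338 in cluster 2, 13804 ± 888 in cluster 4 and 11211 ± 1432 in cluster 5. Against cluster 0 of the same mouse, the median log2 ratio of the nuclear sum was 0.50 in cluster 1 (16 of 16 mice higher), 0.49 in cluster 2 (20 of 20), -0.08 in cluster 3 (4 of 20), 0.60 in cluster 4 (16 of 16) and 0.33 in cluster 5 (17 of 17). Taken gene by gene with 1 CPM added, the median log2 ratio over 47 nuclear members was 0.39, 0.49, -0.092, 0.63 and 0.33 in clusters 1 to 5. Over all genes of at least 1 CPM it was -0.44, -0.17, -0.093, -0.16 and -0.23 in the same order. The complex II sum had a median log2 ratio of -0.16 in cluster 1 (1 of 16 mice higher), beside -0.44 for the median over all genes there. It was higher in clusters 2 (0.18, 19 of 20) and 4 (0.21, 15 of 16) than in cluster 0. The nuclear members of complex IV had their highest ratio in cluster 1 (0.72) and those of complex V in cluster 4 (0.67). The mitochondrially encoded members of both complexes had theirs in cluster 1 (0.49 for complex IV and 0.59 for complex V). The mitochondrially encoded sum was 14948 ± 3044 CPM in cluster 1 against 10791 ± 2301 in cluster 0, with a median log2 ratio of 0.52 (16 of 16 mice higher), and 0.15 in cluster 2 (14 of 20) and 0.23 in cluster 4 (10 of 16).

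Single members separated the clusters further. Cycs was at 76.2 ± 16.7 CPM in cluster 1, near the 80.5 ± 20.5 of cluster 0, and at 175 ± 35.9 in cluster 2, 187 ± 48.9 in cluster 4 and 148 ± 71.7 in cluster 5. Its median log2 ratio to cluster 0 was -0.04 in cluster 1 (6 of 16 mice higher), 1.09 in cluster 2 (20 of 20) and 1.12 in cluster 4 (16 of 16). The median over all genes in cluster 1 was -0.44. Atp5g1 was at 180.4 ± 20.7 CPM in cluster 0, 211 ± 40.1 in cluster 1, 378 ± 69.3 in cluster 2 and 347 ± 79.8 in cluster 4. Group means also differed within clusters 2 and 4, where antibodies were not compared by a test. In cluster 4, Atp5g1 was at 417 and 421 CPM in WT and AppSAA ATV:4D9 mice, and at 285 and 263 in AppSAA ATV:ISO and 4D9 mice (186 and 173 cells). In cluster 2 it was at 446 and 452 CPM in WT and AppSAA ATV:4D9 mice, and between 324 and 339 in the other groups. Both genes were highest in the clusters that hold most cells of the ATV:4D9 groups. Cox6a2 was at 198 ± 56.7 CPM in cluster 1 against 18.02 ± 2.89 in cluster 0, and between 76.4 and 93.7 in clusters 2, 4 and 5. Cox7a2l was at 555 ± 71.0 CPM in cluster 1, 344 ± 51.2 in cluster 0, 255 ± 49.8 in cluster 2 and 291 ± 86.8 in cluster 4. Within cluster 4 it was at 208 ± 7.67 CPM in WT ATV:4D9 and 212 ± 9.85 in AppSAA ATV:4D9 mice, against 373 ± 39.2 in the 186 cluster 4 cells of AppSAA ATV:ISO mice. Uqcrh was at 609 ± 71.7 CPM in cluster 1 and between 309 and 390.3 in the other clusters, as means over mice of all groups. Within cluster 4 it was at 472 ± 62.4 CPM in AppSAA ATV:ISO and 441 ± 17.7 in AppSAA 4D9 mice. There it was at 303 ± 13.8 CPM in WT ATV:4D9 and 317 ± 13.3 in AppSAA ATV:4D9 mice.

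**Figure D5:**
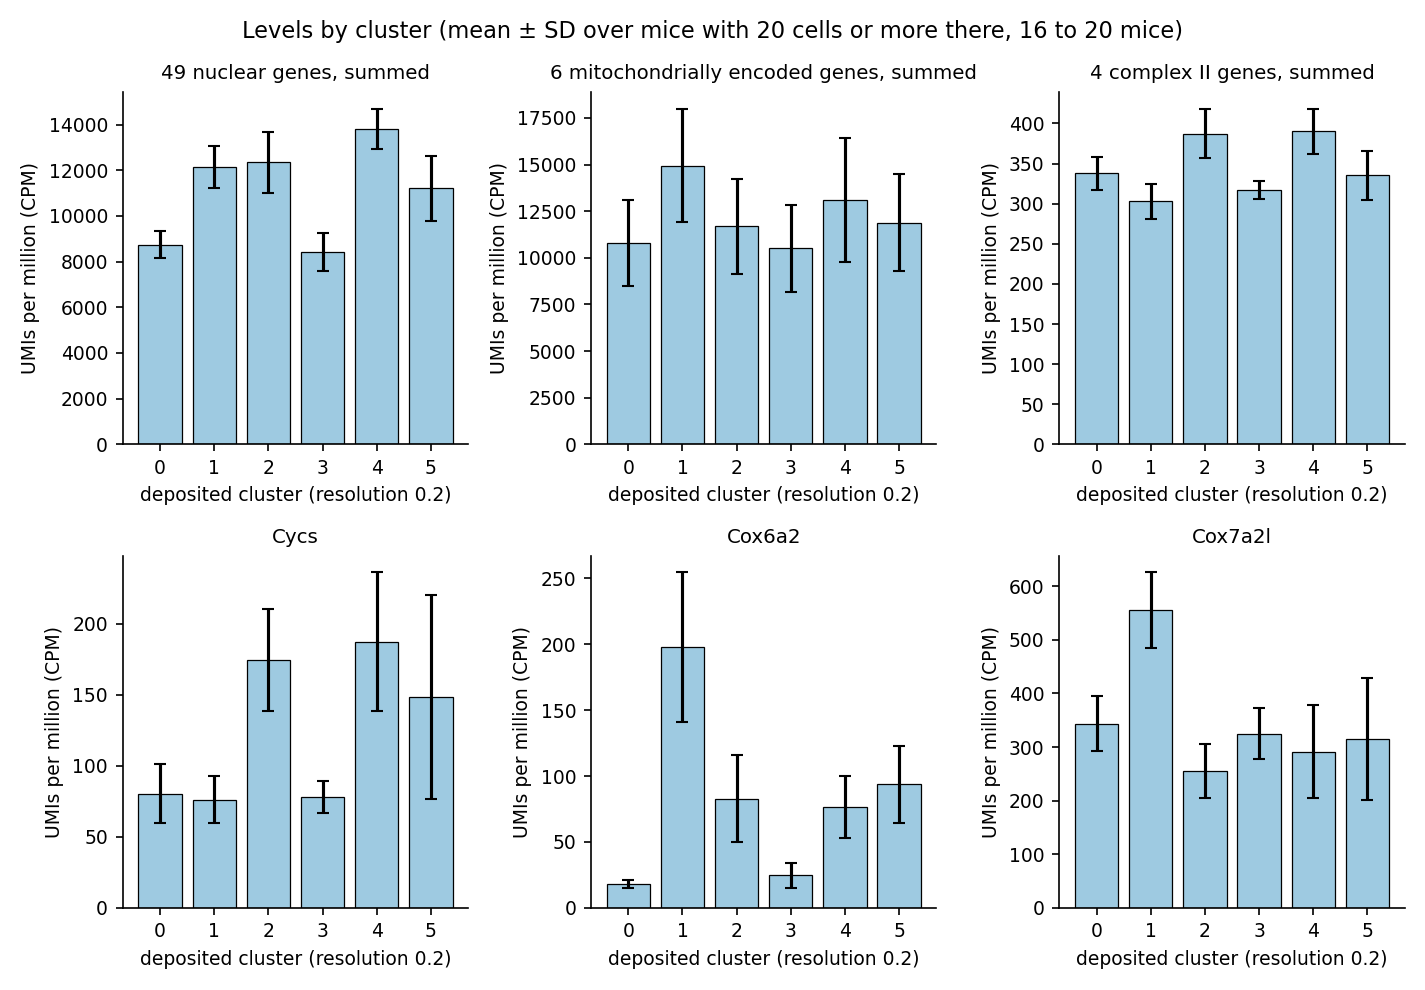
Level in clusters 0 to 5 of the nuclear sum, the mitochondrially encoded sum, complex II, Cycs, Cox6a2 and Cox7a2l, as bars from 0 of the mean with SD over the 16 to 20 mice with at least 20 cells in the cluster (CPM). Cycs is highest in clusters 2 and 4, and Cox6a2 and Cox7a2l are highest in cluster 1.

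Groups were also compared within clusters, on UMIs summed per mouse and cluster, with the limit that cluster membership was itself set from expression. Within clusters 0 and 3, ATV:4D9 against ATV:ISO in WT mice raised 15 of 54 members and lowered none (4.26% and 2.59% of 12545 genes). These were 9 members of complex V, 5 of complex IV and 1 of complex III, with a nuclear median of 0.31 against 0.86 over all cells. At an unadjusted p under 0.05 there were 32 higher and 3 lower, and the share of all genes at that threshold is not given. The count of 15 was 8 without WT ATV:ISO mouse 3 or 4 or WT ATV:4D9 mouse 1, and 9 without WT ATV:4D9 mouse 2. Of all genes, 571 to 1026 were called with 1 mouse left out. In AppSAA mice the same comparison raised 11 and lowered none (3.39% and 1.10% of genes), 6 of complex V, 4 of complex IV and 1 of complex III, with a nuclear median of 0.32 against 0.44 over all cells. That count was 3 without AppSAA ATV:4D9 mouse 1 and 4 without AppSAA ATV:ISO mouse 3 or 4. It was 7 without AppSAA ATV:ISO mouse 1 or AppSAA ATV:4D9 mouse 4 or with the library total alone. It was 11 without the pool 3 mouse rich in haemoglobin transcripts. Of all genes, 330 to 586 were called with 1 mouse left out. Cycs within clusters 0 and 3 had a log2 fold change of 0.31 (adjusted p = 0.196) in WT and 0.38 (adjusted p = 0.147) in AppSAA mice. Cox7a2l there had -0.27 (adjusted p = 0.0554) and -0.031 (adjusted p = 0.926). DESeq2 called 23 members in WT and 17 in AppSAA mice, for which the share of all genes is not given. Blocking on the pool gave 46 of 54 in WT (22.1% of genes) and 40 in AppSAA mice (15.2%), and Cox7a2l, Sdha and Uqcc1 were then called lower in WT mice. With genotype alone no member was called within clusters 0 and 3 by edgeR, DESeq2 or limma-voom, with 0.327% of genes called and 2 members higher at an unadjusted p under 0.05, and 4 with the pool as a block (4.54% of genes), Uqcrh, Cox6a2, Cox7a2l and Atp5mpl.

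Within clusters 1, 2 and 4 edgeR called no member in the comparison tested there, also with each mouse left out, nor did DESeq2 or limma-voom. Antibodies were not compared by a test within clusters 2 and 4. Within cluster 1, AppSAA ATV:4D9 against ATV:ISO mice gave 0 of 54 (1.51% of genes called, and 0 members at an unadjusted p under 0.05), with a nuclear median of 0.026. With the pool as a block 1 member, Cycs, was called lower there, for which the share of all genes is not given. Within cluster 2, AppSAA ATV:4D9 against WT ATV:4D9 mice gave 0 of 52 tested (2.07% of genes, and 0 at an unadjusted p under 0.05), with a nuclear median of 0.12. Within cluster 4 the same groups gave 0 of 54 (2.76% of genes, and 1 higher at an unadjusted p under 0.05), with a nuclear median of 0.12. With the block 1 member, Cox6a2, was called higher there, again without the share of all genes. Cox6a2 in cluster 1 was at 219 ± 33.8 CPM in AppSAA ATV:ISO, 229.6 ± 47.9 in AppSAA 4D9 and 204 ± 47.3 in AppSAA ATV:4D9 mice, which overlapped.

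Genes that build, feed or regulate these complexes were counted from separate lists. With ATV:4D9 in WT mice, 11 of 23 assembly factors of complex IV rose and 2 fell, against 30.8% and 32.5% of all genes, and the other lists of this comparison stand against the same shares. Higd1a, a hypoxia-induced factor (1.37, 57.1 to 136 CPM), and Cmc2 (1.36, 14.9 to 35.4 CPM) rose most, and Higd2a (-0.52, 158 to 102 CPM) and Surf1 (-0.61, 38.8 to 23.5 CPM), which acts in early assembly of complex IV, fell. Ndufa4, now counted as a subunit of complex IV although named for complex I, rose (1.01, 244 to 454 CPM). Of the assembly factors of complex V, 2 of 5 rose (Fmc1 0.88, Atpaf2 0.74), of complex III 1 of 3 rose (Bcs1l 0.43) and 1 fell (Ttc19 -0.34), and of complex II none of 4 passed the test. All 4 tested carriers that exchange ADP, ATP and phosphate rose, among them Slc25a4 (0.65) and Slc25a3 (0.61). Among 16 genes of mitochondrial transcription and transcript stability, 5 rose and 6 fell, with Slirp (0.89) and Tfam (0.43), which packages mitochondrial DNA, at the upper end and Tfb2m (-0.30) and Twnk (-0.56), the mitochondrial helicase, at the lower. Among 8 regulators of respiratory genes, Pprc1 (0.72) and Myc (0.53) rose and 3 fell, including Nrf1 (-0.44) and Gabpa (-0.34). The shares of these last 2 lists called are near those of all genes.

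With genotype under ATV:ISO (14.4% of all genes called higher and 13.7% lower), 6 of 23 assembly factors of complex IV, 2 of 5 of complex V, 2 of 4 carriers, 1 of 16 genes of mitochondrial transcription and 1 of 8 regulators rose, and 1 of 3 assembly factors of complex III and 1 of 8 regulators fell. With ATV:4D9 in AppSAA mice (27.9% of all genes higher and 27.1% lower), 12 of 23 assembly factors of complex IV rose and 2 fell, and 2 of 5 of complex V, 1 of 3 of complex III and 3 of 4 carriers rose. In the same comparison 5 of 16 genes of mitochondrial transcription rose and 3 fell, and 2 of 8 regulators rose and 3 fell, which is near those shares or rests on few genes. None of the 4 assembly factors of complex II passed the test in either comparison.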

How the data were processed

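RNA was measured in single brain microglia by 10x 3′ sequencing. The authors aligned reads to mm10 and counted UMIs with Cell Ranger 6.1.1, told the mice of a pool apart by CellPlex tags and clustered cells in Seurat version 4, and they deposited raw UMI counts with an annotation of mouse, group, cluster and the percent of mitochondrially encoded UMIs per cell. Filters on cells, genes and doublets are not given in the sources used here, and no cell was removed. GEO's samples are the 4 pools, so mice, groups and clusters were taken from the annotation, and 0 columns of values were left unmapped. The members and gene lists were chosen with earlier results of these data known.

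UMI counts were added up over the cells of each mouse or, for clusters, over at least 20 cells of a mouse in that cluster. Levels are CPM or UMIs per cell. All 20 mice entered 1 fit over all genes that passed filterByExpr (edgeR 4.0.16, quasi-likelihood test, TMM scaling, Benjamini-Hochberg adjustment over all genes, called at an adjusted p of 0.05), and adjusted p-values and log2 fold changes with their standard errors come from it unless another tool is named. Of the 55 members, 54 passed. P-values set differences between group means against a spread between mice, estimated once from all mice of the fit. This spread includes differences between pools, which the groups share and the fit has no term for. Intervals of counting error are not given. Sums over a mouse held at least 17150296 UMIs. Scarce genes rest on few of these (956 for Cox7a1 over all mice), and sums over small clusters hold fewer. Counts of members at an unadjusted p, by DESeq2 or with the library total alone lack the share of all genes. So do counts with the pool as a block within clusters 1 and 4. The scripts were tested on simulated data.

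Mouse numbers mark the pool. Deviations of mice of the same pool from their group means were correlated in all 40 pairs of mice (0.279 to 0.808 over 8028 genes), so the pool pairs the mice. The methods text used here names no term for the pool and refers details to material not used here, so the pool is absent from the fit, and the fit with the pool as a block is given beside a printed result where it changes the call or moves a count by over 1.5 times.

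Alternatives were DESeq2's size factors in edgeR, the library total alone, scaling without mitochondrially encoded genes, levels per nuclear UMIs, no filter on low counts, DESeq2 1.42.0, limma-voom (limma 3.58.1), a minimum of 50 cells, cells of 1000 to 25000 UMIs, the pool as a block and each mouse left out. Values in every mouse are given for the mitochondrially encoded members, members called in WT mice given ATV:4D9 with an absolute log2 fold change of at least 1, the largest and smallest change per complex at a mean of at least 10 CPM, Cycs, Cyc1, the Atp5g paralogs, Cox7a2l, Atpif1 and the 6 lowest adjusted p of the interaction. Uqcrh was added after its values were seen. Of other lists, the 2 largest called rises and falls per list are named. Genes were placed with GENCODE annotation of GRCm38, and promoters are from RefSeq (GRCm38.p6). Other software was R 4.3.3, python 3.11.15, numpy 2.4.6 and pandas 2.3.3.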

Additional observations from a re-analysis of the deposited data

Results flagged for a closer look

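Each group of 4 mice was examined for the 31 genes selected by the naming rule and for 9 summed levels of members. Of these 200 groups, 8 had a mouse that stood apart from the other 3 by Dixon's test, and chance gives about 1 in 20. The AppSAA ATV:4D9 mouse of pool 1 stood apart in 5 of them: it was higher than its group in Cycs (250.2 CPM), Cox5a (354 CPM), Atp5g1 (471 CPM) and Cyc1 (150.3 CPM), and lower in Uqcc3 (35.8 CPM). The others were Cox6a1 in the WT ATV:ISO mouse of pool 1 (172 CPM, high), Atp5k in the AppSAA ATV:ISO mouse of pool 4 (119 CPM, low) and Cox4i1 in the AppSAA ATV:ISO mouse of pool 2 (864 CPM, high).

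The response to ATV:4D9 differed between the genotypes, by the interaction term of edgeR's fit, for 8 members, each with a lower log2 change in AppSAA than in WT mice. The difference was -0.58 for Uqcr10 (adjusted p = 0.0207), -0.66 for Uqcr11 (0.0198), -0.46 for Cox4i1 (0.0279), -0.68 for Cox6a1 (0.00374), -1.94 for Cox6a2 (0.000605), -0.54 for Cox6c (0.0315), -0.40 for Atp5h (0.0473) and -0.52 for Atp5k (0.0189).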

How the results depend on the processing

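With 1 mouse left out, 42 to 47 members were called for ATV:4D9 in WT mice, 29 to 36 for genotype, 34 to 40 for ATV:4D9 in AppSAA mice, 33 to 41 for ATV:4D9 against 4D9 and 4 to 5 between genotypes under ATV:4D9. In the same order, 8354 to 8738, 3192 to 3910, 6777 to 7522, 6624 to 7510 and 1103 to 1719 of all genes were called. For the interaction, members called ranged from 3 (without AppSAA ATV:ISO mouse 2) to 22 (without AppSAA ATV:4D9 mouse 1), beside 969 to 1861 of all genes. Within clusters 0 and 3, ATV:4D9 ranged from 8 to 19 in WT mice (without WT ATV:ISO mouse 3 and WT ATV:4D9 mouse 3) and from 3 to 12 in AppSAA mice (without AppSAA ATV:4D9 mouse 1 and AppSAA ATV:ISO mouse 2). With the library total alone, the interaction gave 19 members and ATV:4D9 within clusters 0 and 3 of AppSAA mice 7. DESeq2 gave 19 for the interaction, and 23 in WT and 17 in AppSAA mice within clusters 0 and 3. With the pool as a replicate block, 18 members were called between genotypes under ATV:4D9 and 37 for the interaction. Within clusters 0 and 3 the block gave 46 for ATV:4D9 in WT mice, 4 for genotype and 40 for ATV:4D9 in AppSAA mice. It gave 1 each within cluster 1 (ATV:4D9 in AppSAA mice) and cluster 4 (genotypes under ATV:4D9), without the share of all genes. The block ended no call of a named member, and calls it gained for differences not called without it stand beside those differences. The cause of these shifts was not tested. Under all other alternatives the counts stayed within 1.5 times those reported, and no named member reversed. The nuclear median moved with the library total alone, to 0.74 for ATV:4D9 in WT mice, 0.26 for genotype and -0.043 between genotypes under ATV:4D9. With 1 mouse left out that last median ranged from 0.0078 to 0.17, and the mitochondrially encoded median from 0.21 to 0.43 for ATV:4D9 in WT and from -0.13 to 0.095 in AppSAA mice. Over the calls of named members, together with all differences of the 6 mitochondrially encoded members with ATV:4D9 in WT mice and with genotype, leaving out 1 mouse ended the call 51 times, gained it 1 time and changed it in none of 844 further fits, and other settings ended it 7 times, gained it 9 times and left it in 726. For the 6 mitochondrially encoded members, whose levels differ between pools, 5 of the 12 differences with ATV:4D9 in WT mice and with genotype were called without the block and all 12 with it.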
